A study of Mus musculus with 6 samples.

Results

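Purkinje cell genes were read from bead arrays of whole mouse brain, as all probes whose gene symbol was Pcp2, Pcp4, Car8, Calb1, Itpr1, Rora, Gng13, Slc1a6 or Homer3. Of these 9 symbols, 7 had a probe, which gave 8 of the 25697 probes on the array (18138 symbols), and 5 of the 8 were bright enough on enough arrays to be tested, among 14215 tested probes in all. The series held 6 arrays, 3 labelled hSRY-OFF and 3 labelled hSRY-ON, each of the brain of a male FVB pup (FVB/N in the study's methods) aged 6 days (P6). Both names refer to a single transgenic line made with 1 copy of the Signalox-hSRY transgene at the H11 locus. As the study's methods define hSRY-OFF mice, their transgene had not been recombined, so that the CAG promoter drove the red fluorescent protein DsRed2 and human SRY, the testis-determining factor, was silent. In hSRY-ON mice, Cre recombinase carried over in the oocytes of Ddx4-Cre mothers had removed the DsRed2 stretch in the single-cell embryo, and CAG drove FLAG-tagged human SRY together with EGFP; these mice did not themselves carry Ddx4-Cre. CAG acts in nearly all cells, so the transgene was not restricted to Purkinje cells or to the cerebellum, and the groups also differed in the fluorescent protein they made. The comparison asked which transcripts differed in the brain when human SRY was active. The study also used littermates with no Signalox-hSRY as controls, and whether the mice labelled hSRY-OFF on the arrays were littermates of the hSRY-ON mice, or how many copies they had, is not given in the sources used here, and human SRY itself was not analysed here, so the array gave no check of the genotype labels by the transgene.

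Purkinje cells are the large inhibitory neurons of the cerebellar cortex and its only output. Parallel fibre glutamate acts on their metabotropic receptor mGluR1, whose G protein and phospholipase C make inositol trisphosphate, which in turn opens the Itpr1 channel and releases calcium from the endoplasmic reticulum. Around birth and in the first postnatal weeks these cells line up in a single layer, grow their dendrites and switch on calcium-binding proteins. Pcp2 (also L7), Car8 and Slc1a6 are largely confined to Purkinje cells within the brain, whereas Itpr1, Rora, Calb1, Pcp4, Gng13 and Homer3 are also made by other neurons. In whole brain RNA, a smaller share of Purkinje cells and less of a transcript in each cell cannot be told apart.

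The median deposited intensity of an array lay between 200.2 and 219.8, and 13816 to 14377 probes were detected (detection p-value under 0.05). Over all tested probes, 308 (2.17%) were called different at a Benjamini-Hochberg adjusted p under 0.05 in the limma fit, 188 of them lower (1.32%) and 120 higher (0.844%) in hSRY-ON. With 3 arrays in each group the number of calls changed when 1 array was left out. It was 0 or 1 when any array other than hSRY-ON 3 was left out and 417 without hSRY-ON 3. Whether this came from particular arrays or from having fewer arrays was not tested. Markers of neurons, oligodendrocytes, astrocytes and microglia were detected, whereas the probe for Snap25, a synaptic vesicle fusion protein, and that for Alb, made by liver, were detected on no array.

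Among the listed Purkinje cell genes, Pcp2 fell to 0.512 times its hSRY-OFF level (95% interval 0.431 to 0.608), and it was the single called probe of the 5 tested. Gng13, Itpr1 and Slc1a6 had log2 fold changes between -0.29 and -0.26 that did not pass the adjusted threshold, and Rora had one of 0.23, also not called. Of the 5 probes, 4 had a negative log2 fold change, as did 48.9% of all tested probes. In each of the 5 the normalized values of the groups did not overlap, 4 with hSRY-ON below, against 27.7% of all tested probes without overlap and 14.2% with hSRY-ON below. The median log2 fold change of the 5 was -0.28, and that of all tested probes was 0.0048, with quartiles of -0.14 and 0.14. These counts describe a short list and were given no test of their own.

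Pcp2 encodes a small protein that binds G protein alpha subunits of the inhibitory class and is a classical marker of Purkinje cells. The deposited intensities of its probe, which include the background of the array, were 1908, 1924 and 1575 on the hSRY-OFF arrays. They were 983, 880 and 997 on the hSRY-ON arrays. All 3 hSRY-ON arrays lay well below the lowest hSRY-OFF array, hSRY-OFF 3. After background correction and quantile normalization the log2 level was 10.65 ± 0.15 (SD, n = 3) in hSRY-OFF and 9.69 ± 0.11 in hSRY-ON, and the log2 fold change was -0.97 (SE 0.105, 95% interval -1.21 to -0.72, limma adjusted p = 0.0243). This was the probe ranked 19 by p among all those tested, and 0.295% of tested probes had a log2 fold change as low. The call was lost when any array other than hSRY-ON 3 was left out (limma adjusted p between 0.0614 and 0.108) and stood without hSRY-ON 3 (0.0219), while the log2 fold change stayed between -1.02 and -0.88.

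**Figure D1:**
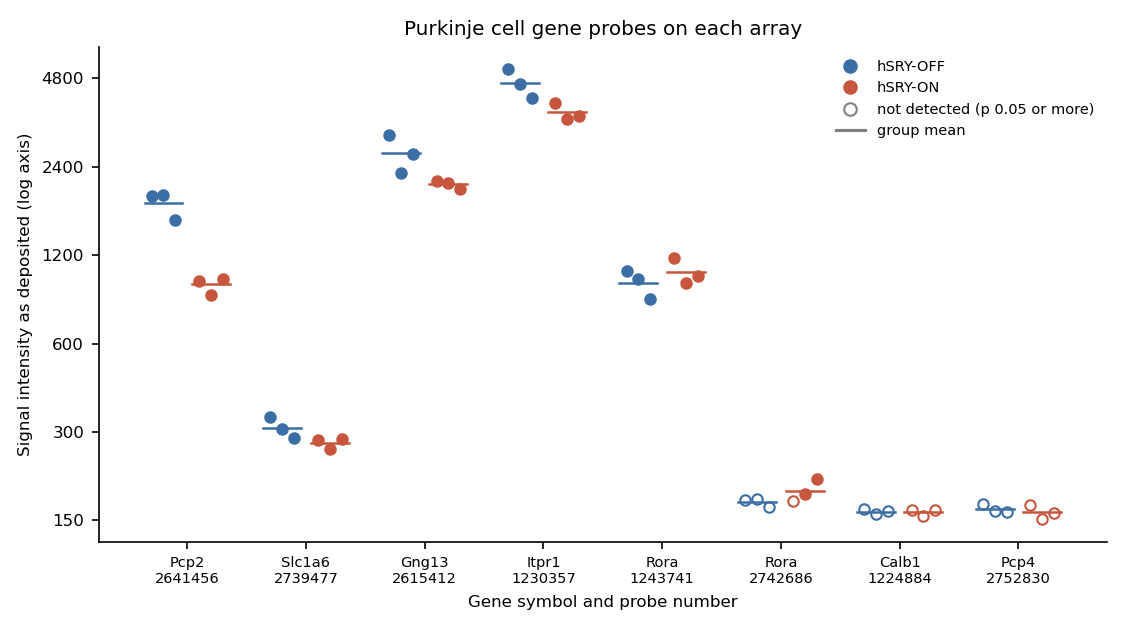
Deposited signal intensity (log axis) of the 8 probes of listed Purkinje cell genes on each of the 3 hSRY-OFF and 3 hSRY-ON arrays, with a line at each group mean and open circles for arrays on which the probe was not detected. The Pcp2 points of hSRY-ON (880 to 997) lie below those of hSRY-OFF (1575 to 1924), and the probes of Calb1 and Pcp4 lie at the background in both groups.

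The stretch of the genome before Pcp2 is printed because Pcp2 carries the one call among the listed genes and because Rora, another listed gene, encodes a nuclear receptor that binds the half-site AGGTCA. The window, from RefSeq on assembly GRCm38.p6, runs from 250 bases before to 50 bases after the first annotated start, chr8:3625498-3625797 on the minus strand, and the capitals mark AGGTCA. The same window of Pvalb, chr15:78206351-78206650 on the minus strand, is printed beside it because Pvalb had the array profile most like that of Pcp2, and it holds no AGGTCA on either strand.
Pcp2: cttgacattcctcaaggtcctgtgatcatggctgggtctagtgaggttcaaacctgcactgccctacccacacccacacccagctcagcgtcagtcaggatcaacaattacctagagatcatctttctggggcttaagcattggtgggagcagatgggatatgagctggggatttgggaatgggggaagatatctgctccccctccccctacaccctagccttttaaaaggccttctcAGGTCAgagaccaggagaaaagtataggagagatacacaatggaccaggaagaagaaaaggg
Pvalb: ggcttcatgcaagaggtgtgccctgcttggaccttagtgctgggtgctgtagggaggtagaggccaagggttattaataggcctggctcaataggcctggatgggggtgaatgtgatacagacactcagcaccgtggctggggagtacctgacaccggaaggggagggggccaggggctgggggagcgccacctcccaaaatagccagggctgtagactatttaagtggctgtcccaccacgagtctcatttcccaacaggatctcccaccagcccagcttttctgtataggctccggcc
AGGTCA begins 12 bases before this first Pcp2 start. RefSeq lists 4 Pcp2 starts, whose windows overlap in part: the same site lies 87 bases before start 2, the window of start 3 has no match, and that of start 4 has another site 26 bases before it. On either strand it was present in 5340 of 32851 RefSeq windows of this length (16.3%), so it is a common run of letters, and many nuclear receptors other than the Rora product bind it. The longer NTAGGTCA was in 2.59% of all windows and in none of those of the listed genes, Pcp2 included. Windows were found for 6 of the 9 listed genes. Those of Pcp4 and Homer3 held 1 match each, and those of Gng13, Slc1a6 and Rora held none.

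Gng13 encodes a gamma subunit of heterotrimeric G proteins. Its deposited intensities were 3069, 2279 and 2646 in hSRY-OFF and 2146, 2111 and 2014 in hSRY-ON. The hSRY-ON arrays lay close together below all 3 hSRY-OFF arrays, of which hSRY-OFF 2 came nearest to them. The log2 level was 11.25 ± 0.15 in hSRY-OFF and 10.95 ± 0.05 in hSRY-ON, and the log2 fold change of -0.29 (SE 0.098, 95% interval -0.53 to -0.06) had a limma adjusted p of 0.154.

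Itpr1, the inositol trisphosphate receptor through which Purkinje cells release stored calcium, had deposited intensities of 5140, 4602 and 4115 in hSRY-OFF and 3954, 3500 and 3567 in hSRY-ON. The lowest hSRY-OFF array and the highest hSRY-ON array were nearly level, but the groups did not overlap. Its log2 level was 12.09 ± 0.08 and 11.81 ± 0.05, and the change was -0.28 (SE 0.081, 95% interval -0.47 to -0.09, limma adjusted p = 0.114).

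Slc1a6 encodes the glutamate transporter EAAT4 of Purkinje cell dendrites. It was a dim probe, with deposited intensities of 337, 307 and 287 in hSRY-OFF and 281, 262 and 283 in hSRY-ON. The groups were set apart only by the small gap between hSRY-OFF 3 and hSRY-ON 3. The log2 level was 7.27 ± 0.09 and 7.02 ± 0.10, and the log2 fold change of -0.26 (SE 0.091, 95% interval -0.47 to -0.04) had a limma adjusted p of 0.171. At an unadjusted p under 0.05, which 20.9% of all tested probes reached (10.9% on the lower side), Pcp2, Gng13, Itpr1 and Slc1a6 passed.

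Rora encodes the retinoid-related orphan receptor alpha, whose loss in the staggerer mouse stops Purkinje cells from maturing, and it is also made in thalamus. Its brighter probe had deposited intensities of 1058, 994 and 849 in hSRY-OFF and 1175, 967 and 1017 in hSRY-ON, so that the groups overlapped before normalization. After it they were just apart, at 9.63 ± 0.11 and 9.85 ± 0.11, and the log2 fold change was 0.23 (SE 0.096, 95% interval -0.0020 to 0.45, limma adjusted p = 0.241). The other Rora probe was detected on hSRY-ON 2 and hSRY-ON 3 alone, at intensities of 184 and 208 against 167 to 177 in hSRY-OFF, and was not tested.

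Calb1, which encodes the calcium buffer calbindin, and Pcp4, which encodes a regulator of calmodulin, could not be read from their probes. The Calb1 probe had intensities of 156 to 164 and the Pcp4 probe of 152 to 170 over the 6 arrays, with detection p-values from 0.392 to 0.723 for Pcp4 and from 0.485 to 0.719 for Calb1. Both genes are known to be made in the brain, so a probe at the background gives no level of the gene in either group. Car8, whose product dampens the binding of inositol trisphosphate to Itpr1, and Homer3, a scaffold that ties mGluR1 to Itpr1, were not analysed here because no probe carried their symbols or synonyms.

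The fall of Pcp2 was compared with the changes of the other listed genes on the same arrays, by taking the difference between the log2 values of 2 genes on each array and asking how it changed from hSRY-OFF to hSRY-ON. Relative to Slc1a6, the value of Pcp2 changed by -0.71 (SE 0.066). The change was -0.68 (SE 0.094) relative to Itpr1 and -0.67 (SE 0.193) relative to Gng13. Relative to Rora it was -1.19 (SE 0.081). In all 4 of these pairs the hSRY-ON arrays lay apart from the hSRY-OFF arrays, and the two-sided exact permutation p was 0.1, the smallest that 3 arrays against 3 allow (0.143 after adjustment over the 10 pairs), so none could reach 0.05. Gng13, Itpr1 and Slc1a6 changed against each other by -0.01 to -0.04 with overlapping arrays (exact p from 0.8 to 1). Their like sizes depended on the background correction, since without it the log2 fold change of Slc1a6 was -0.12, while those of Gng13 and Itpr1 were both -0.27. Each of these 3 changed by -0.52 to -0.48 against Rora, with the arrays again apart (exact p = 0.1).

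**Figure D2:**
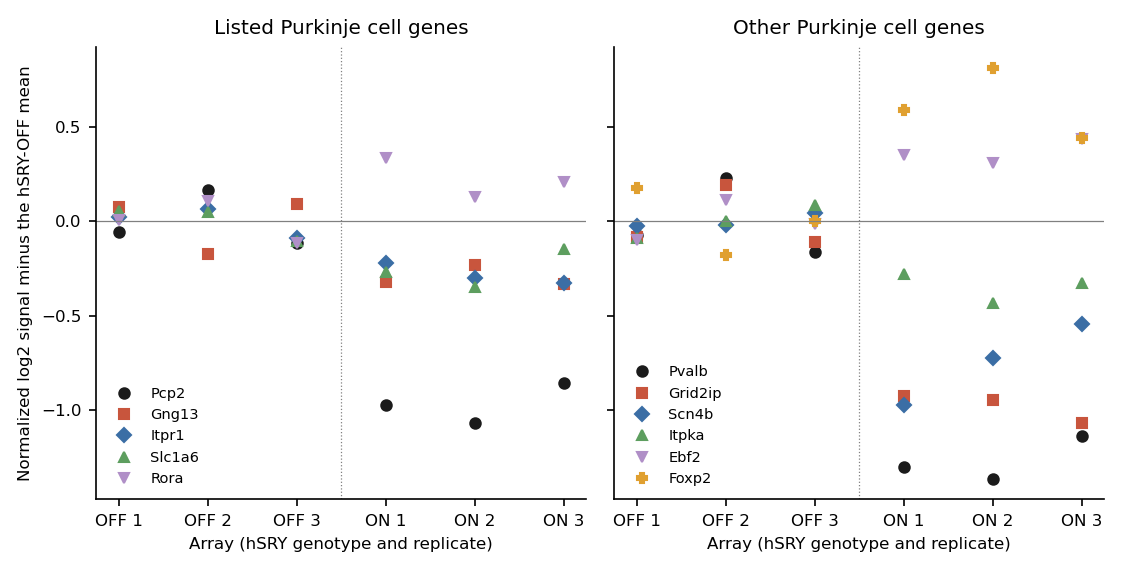
Normalized log2 signal on each array minus the hSRY-OFF mean of the probe, for the 5 tested listed genes (left) and for 6 other Purkinje cell probes (right); each marker is 1 array. On the left Pcp2 lies lowest on all 3 hSRY-ON arrays, Gng13, Itpr1 and Slc1a6 lie between it and the zero line, and Rora lies above the line.

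Further Purkinje cell genes were read from 4 lists of 42 genes, of which 34 had a tested probe, 47 probes in all. Of the 47, 3 were called and all 3 fell: Pvalb, Grid2ip and Scn4b (2.17% of all tested probes were called, 1.32% lower). The other 44 were not called, and 27 of the 47 had a negative log2 fold change, against 48.9% of all tested probes. The median was -0.01, near that of all tested probes. The log2 fold changes spread to both sides, and of the 13 at an unadjusted p under 0.05 (20.9% of all tested probes), 8 were higher in hSRY-ON. The 4 lists were chosen with earlier results of these data known, so these shares describe the lists and test nothing.

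Pvalb encodes parvalbumin, a calcium buffer of Purkinje cells and of fast-spiking interneurons of cerebellum and forebrain. Its deposited intensities were 1954, 2081 and 1586 in hSRY-OFF and 842, 769 and 879 in hSRY-ON. Every hSRY-ON array lay far below the lowest hSRY-OFF array, again hSRY-OFF 3. The log2 level went from 10.71 ± 0.21 to 9.44 ± 0.12, and Pvalb fell by 1.27 on the log2 scale (SE 0.124, limma adjusted p = 0.0240).

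Grid2ip encodes delphilin, a postsynaptic scaffold protein at parallel fibre synapses on Purkinje cells. Its deposited intensities were 259, 260 and 236 in hSRY-OFF and 204, 194 and 194 in hSRY-ON, near the background of the array. The groups were well apart even so, and the log2 level went from 6.61 ± 0.17 to 5.63 ± 0.08, and the change was -0.98 (SE 0.106, limma adjusted p = 0.0243). For such a dim probe the size depends on how much background is removed, and without background correction it was -0.29, still called.

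Scn4b, a sodium channel beta subunit of fast-firing Purkinje cells that is also made in striatum, had deposited intensities of 357, 324 and 326 in hSRY-OFF and 246, 249 and 269 in hSRY-ON. The groups did not overlap, and hSRY-ON 3 was the highest of its group. Its log2 mean was 7.49 ± 0.04 and then 6.74 ± 0.21, and the change was -0.75 (SE 0.117, limma adjusted p = 0.0348). It was -0.34 without background correction, still called, and the call was lost with no filter on dim probes (adjusted p = 0.0538). The calls of Pvalb, Grid2ip and Scn4b were lost, like that of Pcp2, when any array other than hSRY-ON 3 was left out (limma adjusted p between 0.0614 and 0.114) and stood without hSRY-ON 3.

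In the glutamate receptor and calcium cascade, which leads from mGluR1 to the Itpr1 channel, none of 18 tested probes was called by limma at an adjusted p under 0.05 (2.17% of all tested probes were), and 3 had an unadjusted p under 0.05, a smaller share than the 20.9% of all tested probes. The log2 fold change was negative for 13 of the 18, and the median was -0.08. Itpka, the kinase that converts inositol trisphosphate, stood at -0.34 (SE 0.087, adjusted p = 0.0866), with the groups apart. Gnaq, the G protein alpha subunit below mGluR1, had tested probes at 0.36 (adjusted p = 0.180) and -0.22 (adjusted p = 0.531), which disagree in sign. The 3 probes of Atp2b2, a calcium pump of the plasma membrane, had -0.18, -0.16 and -0.04 (adjusted p of 0.226, 0.581 and 0.928).

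Among the synapse organisers, 5 probes were tested and Grid2ip was the one called (1.32% of all tested probes were called lower). Cbln1, a granule cell protein of parallel fibre synapses, stood at -0.16 (adjusted p = 0.380). Adgrb3 had 0.10 and C1ql1, its climbing fibre ligand, had -0.01.

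Among enzymes, channels and cytoskeletal proteins, 9 probes were tested, and Pvalb and Scn4b fell, against 1.32% of all tested probes called lower. Aldoc, whose product zebrin II marks stripes of Purkinje cells and which astrocytes also make, stood at 0.28 (SE 0.076, adjusted p = 0.105), with all hSRY-ON arrays above all hSRY-OFF arrays. The 2 probes of Gad1, the enzyme that makes the transmitter GABA, had 0.11 and 0.19 (adjusted p of 0.609 and 0.554).

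The list of identity and development genes, transcription factors and migration genes of the Purkinje lineage, had no call among 15 probes by limma at an adjusted p under 0.05. Of these, 6 probes of 3 genes (Foxp2, Ebf2 and Dab1) had an unadjusted p under 0.05, as did 20.9% of all tested probes, and all 6 were higher in hSRY-ON, and the median log2 fold change was 0.19. The list also held 6 probes with a negative log2 fold change, down to -0.42, none at an unadjusted p under 0.05. The 3 tested probes of Foxp2, a transcription factor of Purkinje cells and also of thalamus and striatum, had 0.62, 0.46 and 0.36 (adjusted p of 0.0616, 0.190 and 0.196). The 2 probes of Ebf2 had 0.37 and 0.39 (adjusted p of 0.0809 and 0.164). Dab1, the adaptor through which Reelin positions Purkinje cells, had 0.19, 0.29 and 0.28 over its 3 probes, with overlapping groups at each. The largest of these, 0.62 for a Foxp2 probe, passed the adjusted threshold under 5 of 10 other processing choices and in none of the 6 fits with 1 array left out (adjusted p from 0.0555 to 0.164), and it was 0.30 without background correction.

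**Figure D3:**
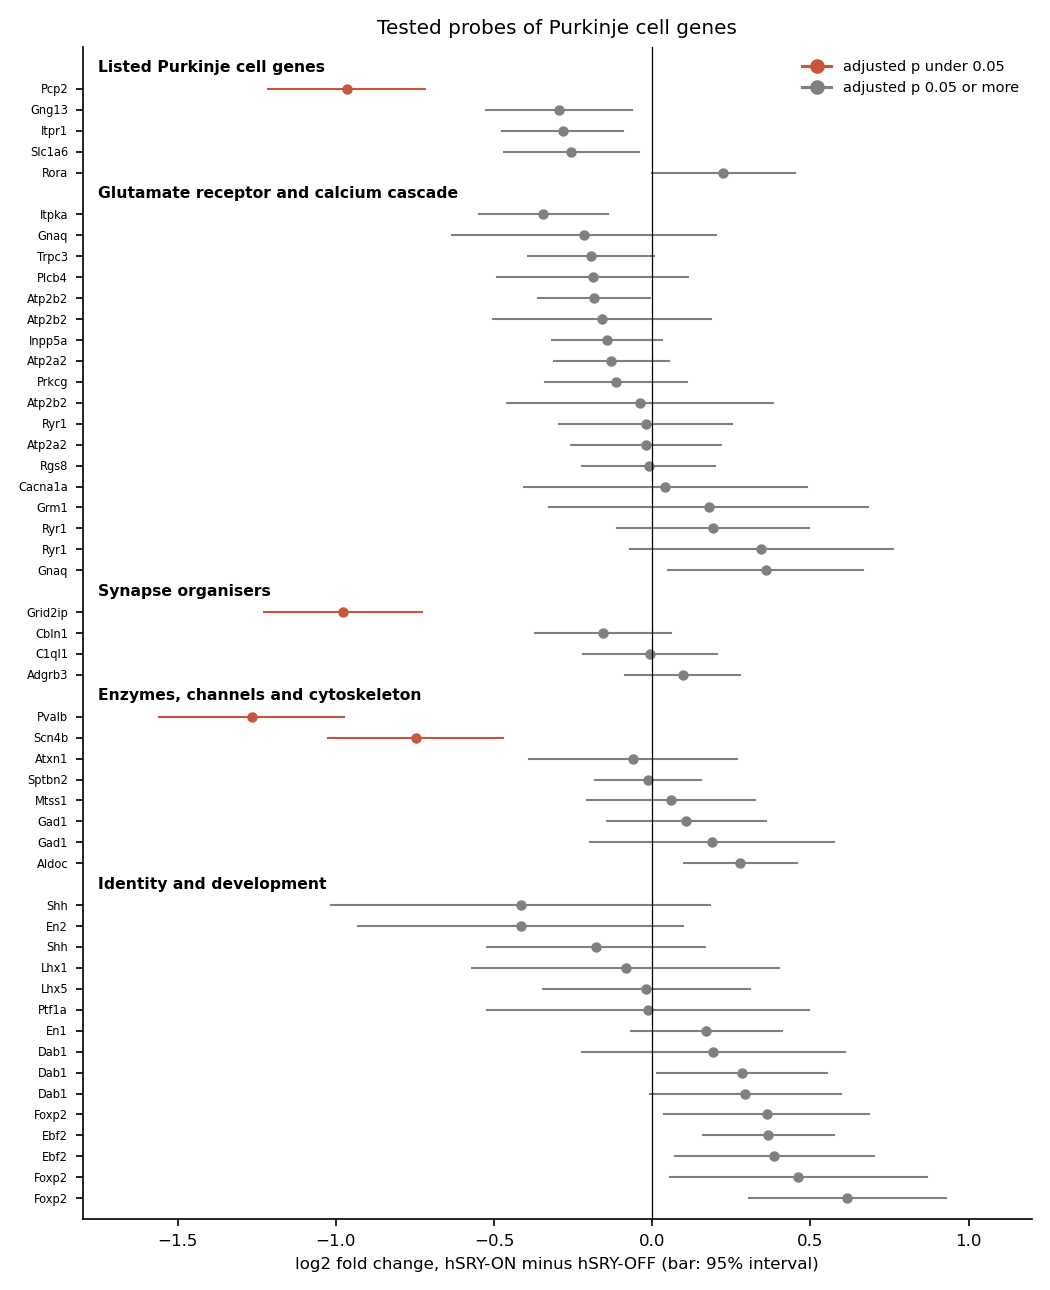
Log2 fold change of hSRY-ON minus hSRY-OFF, with its 95% interval from the limma fit, for the tested probes of the 9 listed Purkinje cell genes and of the 4 further lists, less those not reported here; colour marks an adjusted p under 0.05. Pcp2, Grid2ip, Pvalb and Scn4b, between -1.27 and -0.75, are the 4 coloured probes, and the Foxp2 and Ebf2 probes lie at 0.36 to 0.62.

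The tested probes whose values over the 6 arrays were most like those of Pcp2 were, by Pearson's r, Pvalb (0.9995), Rmnd1 (0.998), Acot8 (0.997), Ccdc80 (0.997) and Wwp1 (0.997). Of the 14215 tested probes, 239 besides that of Pcp2 had an r over 0.95, so a high value alone does not single out a gene. Rmnd1, Acot8, Ccdc80 and Wwp1 were not called (limma adjusted p from 0.0513 to 0.0755), with log2 fold changes between -0.411 and -0.315. Of the listed genes, Itpr1 reached 0.946, Slc1a6 0.921 and Gng13 0.726, while Rora was at -0.680. These are descriptions over 6 arrays that share their group difference.

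Markers of other cells moved on the same arrays, and their part in the Purkinje cell values was not tested. In the list of 10 genes of neurons and glia, 2 of 12 tested probes were called (2.17% of all tested probes) and both fell: Gfap by 0.83 (adjusted p = 0.0308) and Aqp4 by 0.81 (adjusted p = 0.0275) on the log2 scale, both genes of astrocytes. Of the 12 probes, 9 had a negative log2 fold change, against 48.9% of all tested probes, and the median was -0.21. At an unadjusted p under 0.05 there were 5, all lower, where 10.9% of all tested probes were lower. The mean log2 level over that list lay between 10.50 and 10.60 on the hSRY-OFF arrays and between 10.17 and 10.35 on the hSRY-ON arrays. Slc17a7, the vesicular glutamate transporter of cortical and granule neurons, stood at -0.63 (adjusted p = 0.0595), and the 3 probes of Mbp, a myelin protein, had -0.47, -0.42 and 0.01 (adjusted p of 0.0601, 0.270 and 0.960). Apoa1, an apolipoprotein of liver and gut, was the one call among 3 tested probes of other organs and blood and rose by 1.08 (adjusted p = 0.0225), while Alb and Sftpb were detected on no array. Sftpc, a lung surfactant protein, was detected on 2 arrays. Its intensity was 273 on hSRY-ON 1, but 171 and 176 on hSRY-ON 2 and hSRY-ON 3, within the 169 to 203 of hSRY-OFF. For Myh6, a heart muscle myosin, 1 of 2 probes was detected on 1 array. Neither gene was tested.

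Of the granule neuron list, 7 probes of 6 genes were tested, of which 1 was called, against 2.17% of all tested probes. Mfap4, an extracellular matrix protein, fell by 1.22 (adjusted p = 0.0263), and the other 6 were positive and not called, with Etv1 at 0.37 and 0.14, Zic1 at 0.16 and Reln at 0.10. Atoh1, Cbln3, Gabra6 and Pax6, which define granule neurons or their precursors, were detected on no array. The mean log2 level over the list, which includes Mfap4, ran from 8.99 to 9.21 in hSRY-OFF and from 9.06 to 9.10 in hSRY-ON, so the groups overlapped. In the list of Bergmann glia and cerebellar interneurons none of 8 probes was called by limma (2.17% of all tested probes) and 3 had an unadjusted p under 0.05 (20.9%), with Tfap2b at 0.47, 0.37 and 0.32 (adjusted p from 0.0595 to 0.251), Fabp7 at -0.49 (adjusted p = 0.168) and Gdf10, a gene of Bergmann glia, at -0.11. That list's mean log2 level ran from 8.82 to 8.90 in hSRY-OFF and from 8.85 to 9.02 in hSRY-ON.

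Thalamus and striatum share Rora, Foxp2 and Scn4b with Purkinje cells. None of 10 thalamic and 11 striatal probes was called by limma, and 4 thalamic and 2 striatal ones had an unadjusted p under 0.05 (2.17% and 20.9% of all tested probes). The mean log2 level over the thalamic list ran from 8.76 to 8.94 in hSRY-OFF and from 8.93 to 9.07 in hSRY-ON, with Gbx2 at 0.53 (adjusted p = 0.0950), Tcf7l2 at 0.60 and 0.28 (adjusted p of 0.0595 and 0.169) and Cacna1g at -0.49 (adjusted p = 0.0896). The Tcf7l2 probe at 0.60 lay near the background, at intensities of 172 to 199 in hSRY-OFF and 196 to 215 in hSRY-ON. It was detected on 3 arrays, the fewest that allowed a test, so the filter may have let it in through hSRY-ON. It is among the 4 thalamic probes counted and enters that list's mean. Over the striatal list the mean log2 level ran from 8.83 to 8.92 in hSRY-OFF and from 8.84 to 8.98 in hSRY-ON, with Foxp1 at 0.27, Pde10a at 0.17 and the 3 probes of Ppp1r1b between -0.33 and 0.22.

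**Figure D4:**
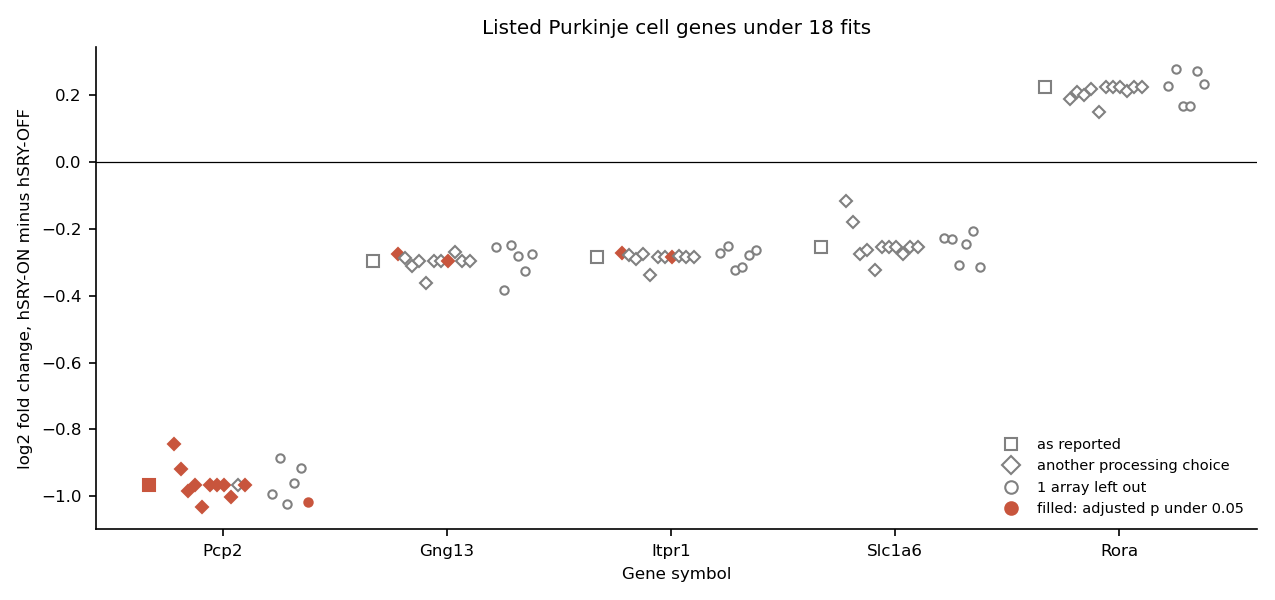
Log2 fold change of the 5 tested listed genes in the fit reported here (square), under 11 other processing choices (diamonds) and with 1 array left out in turn (circles); filled markers have an adjusted p under 0.05. Pcp2 stays between -1.03 and -0.84 and Rora stays positive in every fit, while the filled markers of Gng13 and Itpr1 come from 2 fits.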

How the data were processed

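Total RNA of whole brain was labelled as biotinylated cRNA and hybridised to Illumina MouseRef-8 bead arrays, 1 per sample. Groups and replicate numbers came from the sample labels, which do not say that replicates were separate mice, and the study's text calls them biological triplicates. The authors deposited, per probe and array, a mean bead signal intensity on a linear scale, not normalized, and beside it a detection p-value. The study's methods name TCC for normalization without settings, and the submitters' processing notes name limma; TCC was not used here.

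Intensities were corrected with limma 3.58.1 in R 4.3.3 by normexp with negative controls inferred from the detection p-values (offset 16), quantile normalized and put on the log2 scale. This correction stretches differences between dim probes. The two-sided lmFit and eBayes test was run on the 14215 probes (10548 symbols) that 3 or more of the 6 arrays detected (threshold 0.05), and p-values were adjusted over all of them by Benjamini-Hochberg. All adjusted p-values are from this limma fit. Different probes of a gene were kept apart. Levels of different probes were not compared, and differences between 2 probes were tested by exact permutation over 10 splits. Precision is limited by 3 arrays per group.

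The genes listed, and the other gene lists, were chosen with earlier results of these data known. Beside the 9 genes, every called gene of each list was named, with up to 3 further genes of lowest p and the 5 probes most correlated with Pcp2; untested markers (detected on fewer than 3 arrays) are outside that rule and were picked after their values were seen. Some probes of these lists enter the counts but are not reported here by name. Symbols were updated through RefSeq. The steps were tested on simulated data. Alternatives covered background correction, normalization, filter, prior, array weights, replicate block and arrays left out in turn.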

Additional observations from a re-analysis of the deposited data

How the results depend on the processing

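The directions of the 5 tested listed probes were the same in all 17 alternatives, and 4 were lower in each, or 5 of 8 with no filter on dim probes. Calls were less stable. Over all tested probes, where 308 were called (120 higher, 188 lower), the count was 1338 with no background correction, 860 with normexp fitted on the signals, 705 with a detection p-value under 0.01 on all arrays, 1447 with a trended robust prior, 480 with array weights, 123 with no filter, and 0 to 417 with 1 array left out. With no normalization between arrays the split was 68 higher and 260 lower. With the replicate number as a block no probe was called (2906 at an unadjusted p under 0.05); the same-numbered arrays' deviations correlated at 0.0251 to 0.0404, so the numbers were not taken as pairs, although each array correlated best with its own number. Of the listed probes, 3 were called with no background correction and 3 with the trended prior, which added Gng13 (adjusted p = 0.0320 and 0.0177) and Itpr1 (0.0185 and 0.00609); 0 were called with the block (Pcp2 at 0.0989) and 0 to 1 with 1 array left out. The median log2 fold change was -0.14 with no filter, which adds the 3 probes detected on fewer than 3 arrays. For the other Purkinje cell probes, where the alternatives were chosen after seeing the data, 3 calls became 7 with no background correction, 5 with normexp on the signals, 7 with the trended prior, 0 with the block and 0 to 3 with 1 array left out. Scn4b was not called with no filter (adjusted p = 0.0538). The causes were not tested. Dim probes such as Slc1a6 and Grid2ip, close to background, have the least certain sizes.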
